A study of Mus musculus with 11 samples.

Results

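Hydrogen sulfide is a gas that relaxes vessels, and 7 genes for enzymes that make or remove it in mammalian cells were examined. These are Cth, Cbs and Mpst on the side of synthesis, and Sqrdl, Ethe1, Tst and Suox on the side of oxidation. They were taken as a set by their known function, with earlier results of these data known, and are 7 of 36413 gene names on the array, with 9 of its 55681 probes.

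Gene expression was measured in the descending aorta of 5 old nitrate treated mice and 6 old controls, each RNA sample on an array of its own. All were male C57BL/6 mice aged 20 months. The nitrate treated mice received 1 g/L NaNO3 in the drinking water for 8 weeks, whereas the control arrays carried the agent label "control". The study's methods give sodium chloride in equal concentration for controls, the labels name none, and the labels describe the control arrays as re-analysed earlier ones. The vessel was flushed and freed of periadventitial fat, and was extracted as a whole, so that fewer cells of a type and less RNA per cell cannot be told apart. The comparison asked which of the enzymes' transcripts differed after nitrate.

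Cystathionine gamma-lyase (Cth) and cystathionine beta-synthase (Cbs) form hydrogen sulfide from cysteine and homocysteine in the cytosol, and Cth is the enzyme usually credited with making it in the vessel wall. 3-mercaptopyruvate sulfurtransferase (Mpst) makes it from mercaptopyruvate, a product of cysteine. In mitochondria, sulfide quinone oxidoreductase (Sqrdl, now named Sqor) passes electrons from sulfide to coenzyme Q, Ethe1 oxidizes the persulfide to sulfite, the rhodanese Tst moves sulfur between sulfite, glutathione persulfide and thiosulfate, and sulfite oxidase (Suox) turns sulfite into sulfate.

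The sequences of the probes that carried the largest differences of the 2 genes past the thresholds are shown because every value for these genes is the brightness of such a 60-base probe. The Cth probe lies on the minus strand at chr3:157560183-157560242 and the Tst probe on the minus strand at chr15:78230212-78230271 (mm9, as the array files give them). Each is found on no other probe of the array, reads 5′ to 3′ along the transcript and holds at least 1 reading frame without a stop codon.
Cth probe 1: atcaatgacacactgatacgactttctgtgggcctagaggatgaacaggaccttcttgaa
Tst probe 2: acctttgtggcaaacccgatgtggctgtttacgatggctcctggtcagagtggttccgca

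All 7 genes had a detected probe, meaning one marked as both found and well above background in at least 5 mice of 1 group. Tst and Cth were lower in old nitrate treated mice by the study's own thresholds, an unadjusted P under 0.05 and a fold change above 1.2. None of the 7 was higher by these thresholds, which 4.27% of gene names were. Of all detected gene names 4.62% passed them as lower and 8.89% in either direction (9.00% of all detected probes), so that 2 of 7 is a count to be read against this background. No enzyme passed after Benjamini-Hochberg adjustment over all detected probes in limma, where the smallest adjusted P of the 8 detected probes of these genes was 0.304. Of the enzymes 5 had a negative difference and the median difference was -0.13 (log2, nitrate minus control), beside a median of 0.02 over all detected gene names, of which 45.4% were negative. No enzyme separated the groups without overlap, as 2.94% of gene names did.

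**Figure D1:**
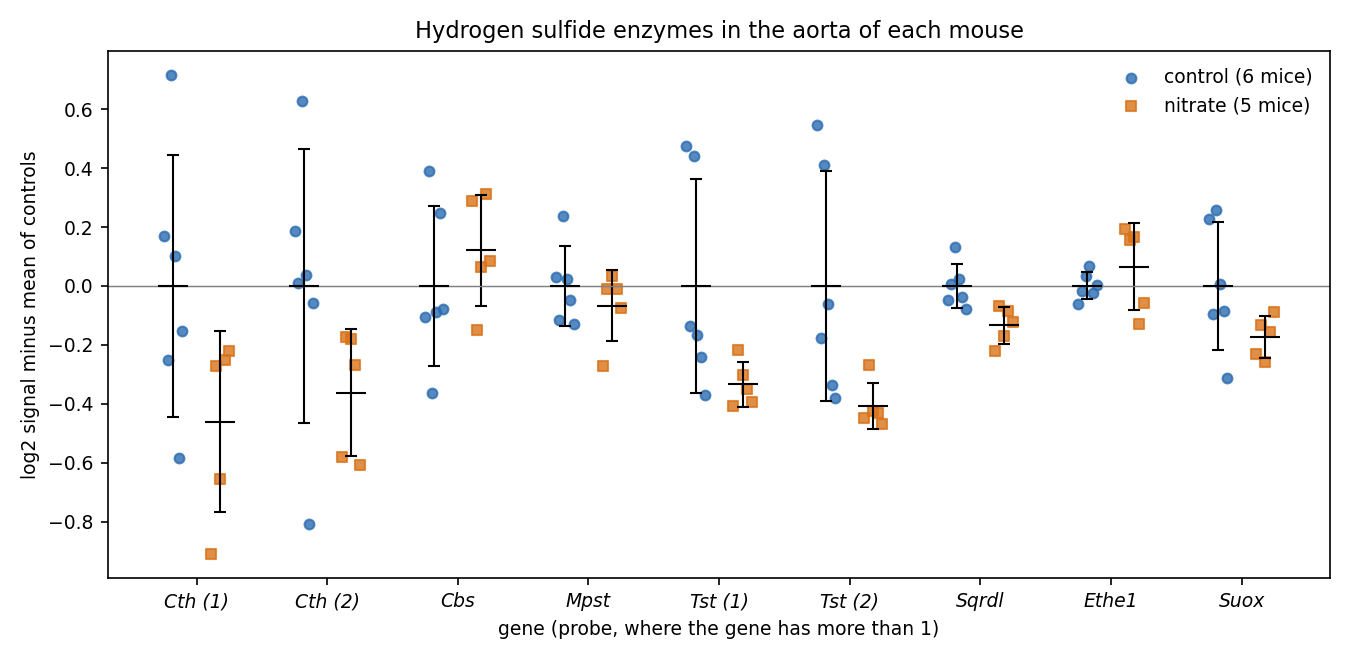
Log2 signal of each enzyme probe in each mouse, minus the mean of the 6 controls (circles, controls; squares, nitrate treated mice; bars, mean ± SD). For Tst the controls spread from the nitrate level upward while the nitrate treated mice lie close together, and for Sqrdl 4 of 5 nitrate treated mice lie below the lowest control.

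Of the enzymes of synthesis, only Cth passed the thresholds. Its brighter probe gave a log2 signal of 5.36, 6.00, 5.62, 6.02 and 6.05 in nitrate treated mice 1 to 5, and of 6.44, 6.02, 6.99, 6.37, 5.68 and 6.12 in controls 1 to 6. The groups overlapped, controls 2 and 5 lying among the nitrate treated mice and control 3 standing highest. Means were 5.81 ± 0.31 (SD, n = 5) and 6.27 ± 0.44 (SD, n = 6). Cth was 1.38-fold lower after nitrate, a difference of -0.46 ± 0.21 (SE) with an unadjusted P of 0.0489 and an adjusted P of 0.345 in limma. The exact two-sided permutation test over all 462 divisions of the mice gave P = 0.0671.

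The signal of this probe was weak, though well above background in all 11 mice. The scanner software marked its spot as found in 4 of 5 nitrate treated mice and 6 of 6 controls. A further Cth probe, at chr3:157557667-157557726, was also well above background in all 11 mice. Its spot was marked as found in 4 mice of each group, so that this probe fell outside the detection rule. Its values were 5.58, 5.99, 5.98, 5.89 and 5.55 against 6.35, 6.17, 6.79, 6.20, 5.35 and 6.10, again with control 3 highest and control 5 lowest of all mice. The difference was -0.36 (95% interval -0.84 to 0.12), which did not pass (exact permutation P = 0.145). The 2 probes' differences were not separable from each other (-0.10, exact permutation P = 0.532).

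The Cth call did not hold when nitrate treated mouse 1 or 3, or control 1, 3, 4 or 6, was left out, where the difference was -0.35, -0.41, -0.43, -0.32, -0.44 and -0.49, respectively. On the 3 slides it was -0.55, -0.63 and -0.30. With the slide as a block the difference was -0.48 and passed no longer (limma, unadjusted P = 0.0582).

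Cbs, the other enzyme of the transsulfuration pathway, had a log2 signal of 8.34, 7.91, 8.12, 8.37 and 8.14 in nitrate treated mice, and of 7.95, 8.44, 7.69, 7.97, 8.30 and 7.97 in controls. The nitrate treated mice lay within the range of the controls. The difference was 0.12 (95% interval -0.17 to 0.41; limma, unadjusted P = 0.388), an interval that reaches beyond the fold threshold on the upper side.

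Mpst gave 10.60, 10.87, 10.91, 10.86 and 10.80 in nitrate treated mice against 10.91, 10.76, 11.11, 10.90, 10.83 and 10.74 in controls. Nitrate treated mouse 1 was the lowest and control 3 the highest of all mice, and the other mice of both groups overlapped. The difference was -0.07, with a 95% interval of -0.25 to 0.11 that stays inside the fold threshold in both directions.

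**Figure D2:**
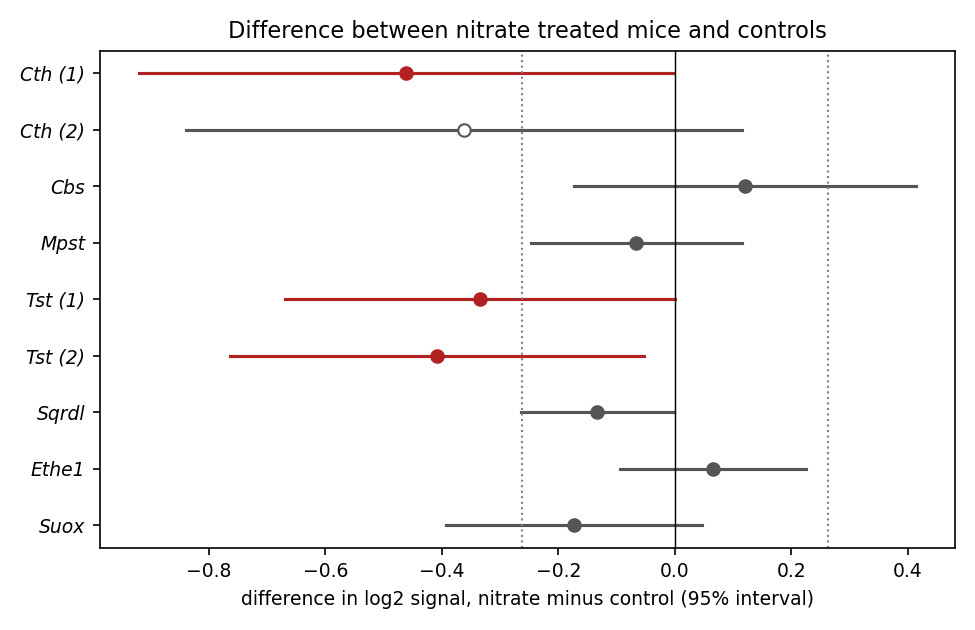
Difference in log2 signal between nitrate treated mice and controls for each enzyme probe, with its 95% interval from limma (red, past both thresholds; open circle, probe outside the detection rule; dotted lines, a fold change of 1.2). The intervals of the 3 red probes end just below 0, that of Tst probe 2 at -0.05.

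On the side of oxidation, Sqrdl takes the first step. Its log2 signal was 11.90, 12.06, 11.96, 12.04 and 12.003 in nitrate treated mice and 12.08, 12.13, 12.26, 12.15, 12.09 and 12.05 in controls. Of the 5 nitrate treated mice 4 lay below the lowest control, and 5 of the 6 controls above the highest nitrate treated mouse. The difference was small, -0.13 ± 0.06 (SE) or 1.097-fold, and thus under the fold threshold, with an unadjusted P of 0.0481 and an adjusted P of 0.344 in limma. The exact two-sided permutation test gave P = 0.00649, of a smallest possible 0.00216. An unadjusted P under 0.05 with a lower signal was met by 6.43% of gene names.

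By slide, the Sqrdl difference was -0.12, -0.14 and -0.15, and it ran from -0.15 to -0.11 with each mouse left out in turn. Its P in limma ran from 0.0381 to 0.115 over these 11 fits.

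Ethe1, the persulfide dioxygenase that follows, gave 10.88, 10.85, 10.86, 10.56 and 10.63 in nitrate treated mice against 10.63, 10.67, 10.73, 10.76, 10.67 and 10.696 in controls. Nitrate treated mice 1, 2 and 3 were above every control, mouse 4 was below every control, and mouse 5 lay among them. The difference was 0.07 (95% interval -0.09 to 0.22; limma, unadjusted P = 0.388). By slide it was 0.21, 0.13 and -0.10.

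Tst was the enzyme of oxidation that passed the thresholds, with both of its probes. It is also in the study's own list of changed genes, which was drawn from these mice, so that its direction here is not independent evidence. Tst probe 2 gave a log2 signal of 8.89, 9.07, 8.92, 8.91 and 8.87 in nitrate treated mice, and of 9.89, 9.16, 9.75, 9.28, 9.01 and 8.96 in controls. Controls 1 and 3 stood well above all other mice, and controls 5 and 6 overlapped with the nitrate treated mice. The fold change was 1.33, a difference of -0.41 ± 0.16 (SE) with an unadjusted P of 0.0276 and an adjusted P of 0.304 in limma. The exact permutation test gave P = 0.0346.

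Tst probe 1, the brighter one, lies at chr15:78230058-78230117 on the same strand. It gave 9.86, 10.05, 9.96, 9.92 and 9.87 after nitrate against 10.74, 10.13, 10.71, 10.10, 10.03 and 9.90 in controls, again with controls 1 and 3 highest. The difference was -0.33 ± 0.15 (SE), or 1.26-fold, with an unadjusted P of 0.04996 in limma and an exact permutation P of 0.0693. Both probes thus moved in the same direction, and their difference from each other was 0.07 (exact permutation P = 0.0801).

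For some enzymes the mice of one group spread farther than those of the other. The SD of Tst probe 1 was 0.36 in controls and 0.08 in nitrate treated mice, and only 1.06% of detected probes had a larger ratio of control to nitrate SD. For Suox the SD was 0.22 and 0.07, with 4.34% of probes above it. Ethe1 ran the other way, with an SD of 0.05 in controls and 0.15 in nitrate treated mice. For Cth probe 1, Cbs, Mpst and Sqrdl the control SD was 1.12 to 1.45 times the nitrate SD, and 31.1% to 49.1% of probes had a larger ratio, while for Cth probe 2 it was 2.16 times. These ratios were looked at after the values were seen and were not tested.

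Among the 11 fits with 1 mouse left out, the Tst difference was nearest to 0 without control 1 or control 3. Without control 1 the difference was -0.24 with probe 1 and -0.30 with probe 2, and without control 3 it was -0.25 and -0.33. Probe 1 passed the thresholds only when control 4, 5 or 6 was the mouse left out, while probe 2 passed in all 11 fits except those without nitrate treated mouse 1 or 5 or control 3, where it was -0.40, -0.39 and -0.33. Probe 1 without nitrate treated mice 1 to 5 gave -0.32, -0.36, -0.34, -0.33 and -0.32, and without control 2 -0.36. By slide, probe 1 gave -0.48, -0.03 and -0.47 and probe 2 -0.54, -0.20 and -0.49, slide 2 holding 1 nitrate treated mouse with controls 4 and 6.

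**Figure D3:**
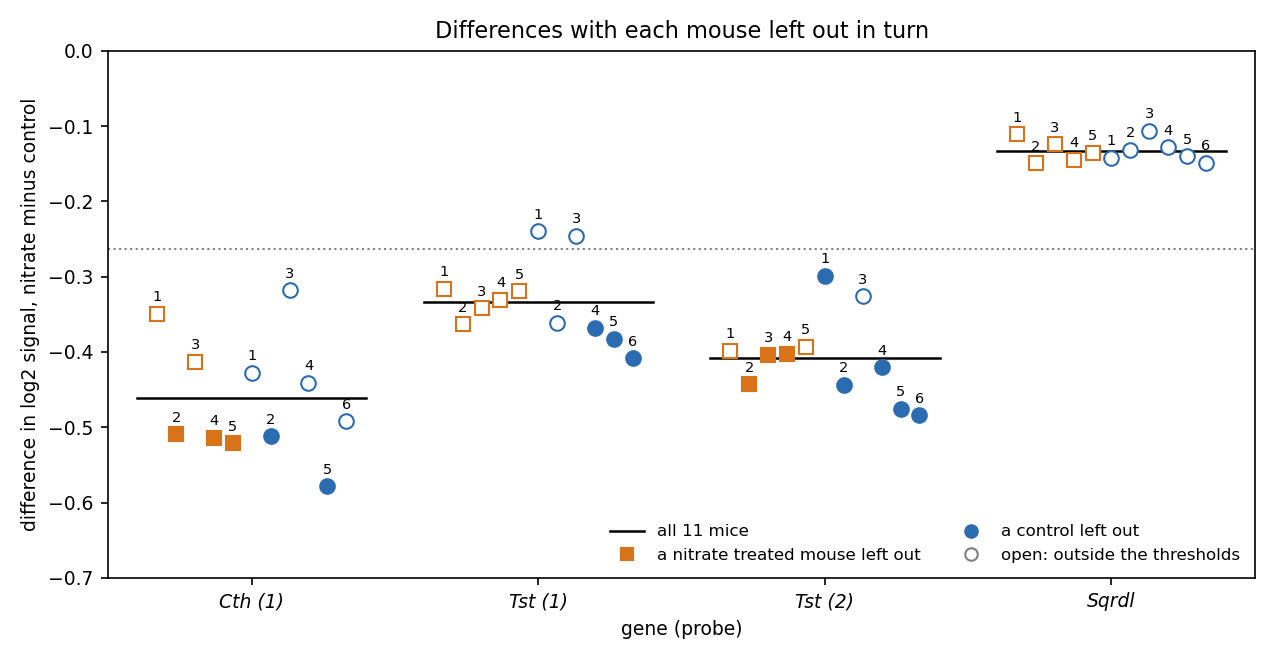
Difference in log2 signal, nitrate minus control, for Cth, both Tst probes and Sqrdl when each mouse is left out in turn (squares, nitrate treated mouse left out; circles, control left out; numbers, the mouse; filled, past both thresholds; line, all 11 mice; dotted line, a fold change of 1.2). All values stay negative, the Tst values come nearest to 0 without control 1 or control 3, and Sqrdl stays between -0.15 and -0.11.

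Tst and Mpst are neighbouring genes on chromosome 15 and encode related sulfurtransferases. Taken as Tst minus Mpst within each mouse, the difference between the groups was -0.27 with Tst probe 1 and -0.34 with probe 2. Exact permutation tests of these differences gave P = 0.0476 and P = 0.0303, or 0.0476 for both after Benjamini-Hochberg adjustment over the 2 tests. Both tests used the same mice and the same Mpst probe, and Tst had already passed as lower, so they are not independent evidence.

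Suox, the last step to sulfate, gave 11.03, 11.12, 10.997, 11.10 and 11.17 in nitrate treated mice and 11.48, 11.16, 11.52, 11.26, 11.17 and 10.94 in controls. Controls 1 and 3 were again the highest, and control 6 was the lowest of all mice. The difference was -0.17 (95% interval -0.39 to 0.05), which did not pass (limma, unadjusted P = 0.111; exact permutation P = 0.143).

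Counted once per gene by the brighter probe, control 3 was the highest control for 4 of 7 enzymes and first or second for 6, but the lowest for Cbs. Control 1 was first or second for 4, namely Cth, Mpst, Tst and Suox, and the lowest for Ethe1. In units of each gene's SD over the 11 mice, Tst and Suox lay closest together, with a mean absolute difference of 0.305 per mouse, followed by Cth and Sqrdl with 0.389. Cbs and Cth, which act in sequence in transsulfuration, lay farthest apart with 1.49. The 11 mice and their treatment are shared by all these pairs, and the values describe the mice only.

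Markers of fat cells were highest in the same 2 controls. All 15 adipocyte markers were detected and none was at 0, although the vessels had been cleaned of fat. Their summed signal ran from 349000 to 470000 in nitrate treated mice and from 439000 to 634000 in controls. Of the 15 markers 14 had a negative difference and 8 passed the thresholds, all lower after nitrate, among them the adipokine Adipoq (-0.49), the fat cell regulator Pparg (-0.57) and Retn, which encodes resistin (-0.84). Their mean log2 signal, relative to all mice, was -0.49, -0.24, -0.20, 0.00 and -0.12 in nitrate treated mice and 0.51, 0.07, 0.46, 0.11, 0.04 and -0.13 in controls.

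**Figure D4:**
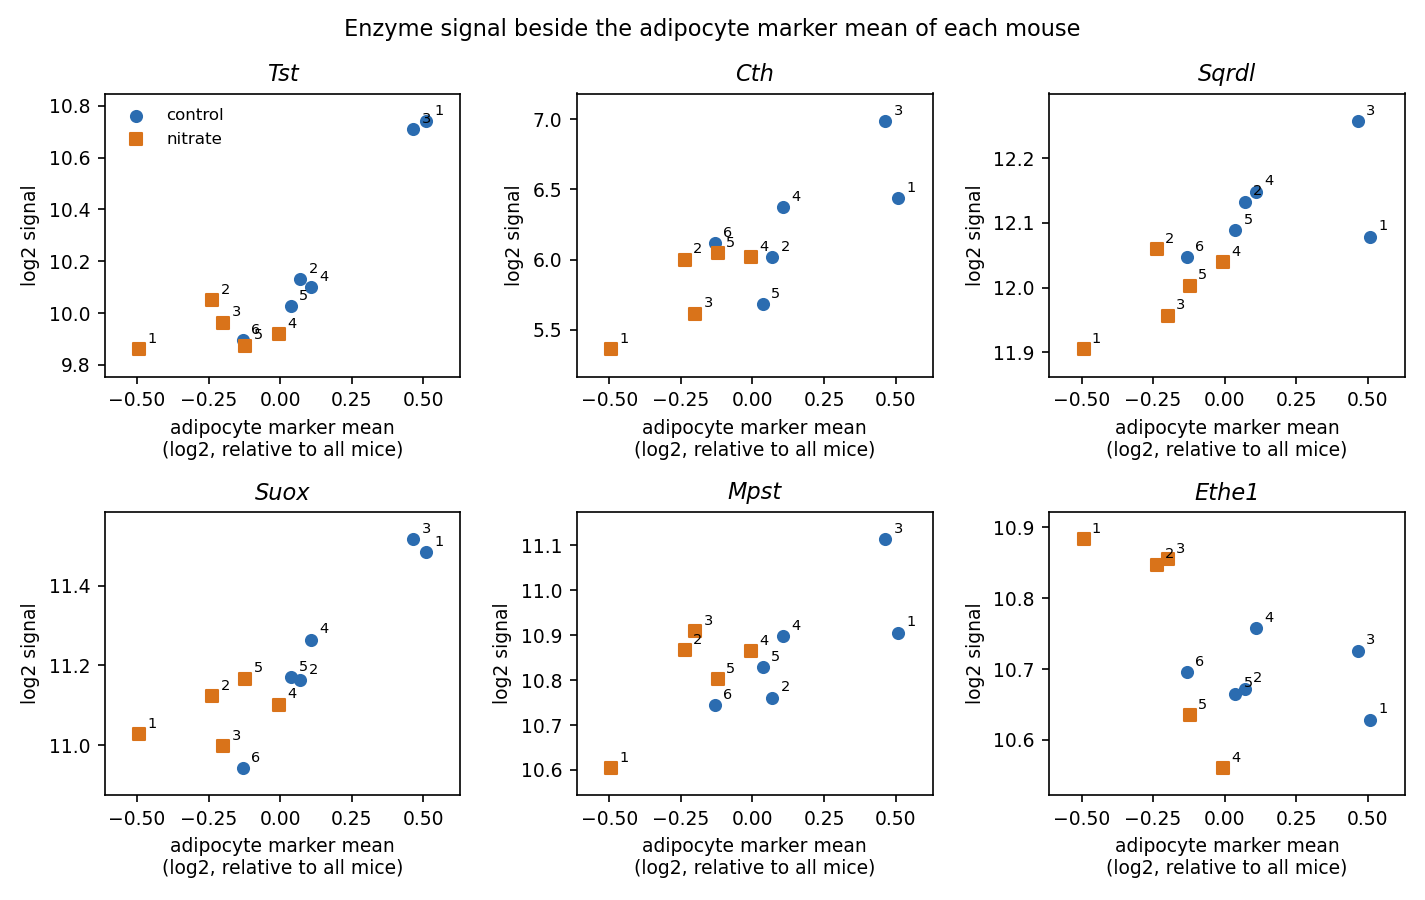
Log2 signal of 6 enzymes (brighter probe where there are several) against the mean of 15 adipocyte markers, in each mouse (circles, controls; squares, nitrate treated mice; numbers, the mouse). Controls 1 and 3 are highest on both axes for Tst and Suox, and nitrate treated mouse 1 is lowest on both for Tst, Cth, Sqrdl and Mpst.

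With this adipocyte mean as a covariate, none of the 7 enzymes passed the thresholds. The differences became 0.07 and 0.00 for Tst probes 1 and 2, 0.05 for Cth and 0.08 for Suox, and of the 5 enzymes with a negative difference Sqrdl alone stayed negative, at -0.06 (limma, unadjusted P = 0.422). The covariate itself differed between the groups by -0.39, so that a share of the treatment difference is taken out with it and the 2 cannot be told apart in these mice.

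Among brown fat markers, 1 of 5 passed the thresholds, Cidea at -0.52, and control 1 had the highest mean. Smooth muscle markers were detected on all arrays and ran opposite to the fat markers. All 6 had a positive difference, 1 of them, Lmod1, passed at 0.31, and Smtn (0.26) separated the groups without overlap but was under the fold threshold. Their mean differed by 0.17, with control 1 lowest (-0.43), and by 0.0982 without control 1, and its part in the enzyme differences was not tested. None of the 5 endothelial, 4 fibroblast, 5 macrophage or 5 heart muscle markers passed, though all 4 fibroblast and all 5 macrophage markers had a positive difference. The heart muscle mean was high in nitrate treated mouse 4 (4.10) and control 1 (3.51), and from -2.11 to 0.65 in all other mice. Without both of these mice, an alternative added after seeing the data, 0 of 7 enzymes passed in limma, with differences of -0.24 (unadjusted P = 0.144) and -0.29 (unadjusted P = 0.0798) for Tst probes 1 and 2 and -0.48 (unadjusted P = 0.0837) for Cth.

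For each enzyme, the genes closest in pattern were taken by the same measure, the mean absolute difference in SD units over the 11 mice, among 12199 named genes whose median distance was between 1.08 and 1.12. Tst was closest to Npc2 (0.167), Aldh1l1 (0.17) and Aldh1a7 (0.186). Suox was closest to Mgst1 (0.213), Lrrc51 (0.225) and Cdkn2b (0.227). Sqrdl was closest to Pxmp2 (0.256), the adipocyte marker Adipoq (0.258) and Dgkd (0.279), and Pxmp2 was also nearest to Cth (0.267), before Ppa1 (0.286) and Yipf6 (0.322).

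The remaining enzymes had nearest genes that did not differ by the thresholds. These were Dct, Ftl1 and Mogat1 for Mpst (0.229 to 0.276), Osbpl3, Htra3 and Sec13 for Ethe1 (0.25 to 0.303), and Zcchc3, Mapre3 and 4930520O04Rik for Cbs (0.371 to 0.402). Among the nearest genes of Tst, Suox, Sqrdl and Cth, each except Yipf6 had an unadjusted P under 0.05 in limma and a negative difference, from -0.69 for Aldh1a7 to -0.30 for Pxmp2. Genes picked for the same pattern over the same mice share its direction by construction, so these values describe the choice only.

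Around the enzymes, 56 genes of cysteine, sulfate, cofactor and electron acceptor pathways were examined, of which 44 were detected. Of the 44 genes 5 (11.4%) passed the thresholds, all lower in nitrate treated mice, against the background of 8.89% in either direction. The median difference over the 44 was -0.05.

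The clearest differences were in the supply and use of cysteine, the substrate of hydrogen sulfide synthesis. Cdo1, cysteine dioxygenase, which commits cysteine to taurine and sulfate, gave 13.28, 13.17, 13.39, 13.64 and 13.42 in nitrate treated mice and 14.19, 13.95, 13.93, 13.99, 13.77 and 13.76 in controls. Every nitrate treated mouse was below every control. The difference was -0.55 ± 0.10 (SE), with an unadjusted P of 1.29e-04 and an adjusted P of 0.0938 in limma, and the exact permutation test gave its smallest possible P, 0.00216.

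Slc1a1, a glutamate transporter that also carries cysteine, gave 4.598, 4.34, 4.80, 5.19 and 4.45 against 6.02, 5.21, 5.69, 5.30, 5.39 and 5.35. The groups did not overlap here either, though nitrate treated mouse 4 came close to control 2. The difference was -0.82 ± 0.17 (SE), with an adjusted P of 0.116 in limma, in a probe well above background in 4 of 5 nitrate treated mice. Cdo1 and Slc1a1 both passed the thresholds with each mouse left out in turn, and they passed at -0.35 and -0.43 once the adipocyte mean was fitted as a covariate. The Slc1a1 probe was not tested where a probe had to be well above background in all 11 mice.

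The other 9 detected genes of this list did not pass. Among them Slc3a2, the heavy chain of amino acid transporters, differed by -0.04, the neutral amino acid transporter Slc1a4 by 0.01 and Csad, the decarboxylase after Cdo1 in taurine synthesis, by -0.18.

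In the list of thiosulfate and sulfate handling, Slc25a10 alone passed of 7 detected genes. It encodes the mitochondrial dicarboxylate carrier, which also exchanges thiosulfate and sulfate, and gave 6.28, 7.004, 6.99, 6.52 and 6.31 in nitrate treated mice against 8.02, 7.14, 8.38, 7.27, 6.99 and 6.72 in controls. Controls 3 and 1 were the highest, as for Tst. The difference was -0.80 ± 0.28 (SE; limma, unadjusted P = 0.0161, adjusted P = 0.271), and it was not past the thresholds with the adipocyte covariate or without both mice high in heart muscle markers. The rhodanese domain genes Tstd1 and Tstd2 differed by 0.08 and -0.06, and Selenbp1, a methanethiol oxidase that yields hydrogen sulfide, by -0.08. The sulfate transporter Slc26a2 fell outside the detection rule, its spots being marked as found in 3 nitrate treated mice and 2 controls. It passed as lower (-0.29) without the detection filter and with the rule that asked only for a signal well above background in all 11 mice.

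Coenzyme Q accepts the electrons of Sqrdl, and 2 of 9 detected genes of its synthesis passed. Coq5, a methyltransferase, gave 8.12, 8.10, 8.24, 8.11 and 8.43 against 8.99, 8.65, 8.38, 8.55, 8.27 and 8.25, a difference of -0.32 (limma, unadjusted P = 0.0315). A further probe of Coq5 gave -0.28 and did not pass (limma, unadjusted P = 0.071). Coq6, a monooxygenase of the ring, gave 12.19, 12.20, 12.37, 12.75 and 12.88 against 13.11, 12.87, 12.76, 12.77, 12.80 and 12.52, a difference of -0.33 (limma, unadjusted P = 0.0411).

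With 1 mouse left out in turn, Coq5 passed in 5 and Coq6 in 3 of 11 fits, and Slc25a10 in all 11. Coq5 did not pass without nitrate treated mouse 1, 2 or 4 or control 1, 2 or 4, and Coq6 did not pass without nitrate treated mouse 1, 2 or 3 or any of controls 1 to 5. Coq5 also did not pass without both mice high in heart muscle markers, nor Coq6 without the detection filter. Neither Coq gene passed with the adipocyte covariate. That fit called 5 pathway genes too, the lower Cdo1 and Slc1a1 and, in place of the other 3, the transaminase Got1 (0.69), Pdss2 of coenzyme Q synthesis (0.35) and the thioredoxin reductase Txnrd2 (0.29), all higher. None of these 3 passed in the reported fit, and Got1 passed also without control 1. Coq4, likewise of coenzyme Q synthesis and not past the thresholds in the reported fit, passed without control 5. Pdss1, Pdss2 and Coq2, the first enzymes of the route, differed by -0.03, 0.02 and 0.02.

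None passed in the remaining lists. Of 6 detected genes of the methionine cycle, which feeds homocysteine to Cbs, Mat2a differed by 0.11, Mat2b by 0.13 and Ahcy by -0.12. Of 4 genes of the molybdenum cofactor that Suox needs, Mocs1 differed by -0.08, Mocs2 by -0.20 (0.93 ± 1.02, SE, with its dimmer probe) and Mocs3 by 0.02. Of 4 thioredoxin genes, which can release sulfide from Mpst, Txn1 differed by 0.00, Txn2 by -0.11 and Txnrd1 by 0.03. Of the 3 detected subunits of the ATP-sensitive potassium channel, a target of hydrogen sulfide in smooth muscle, Kcnj8 differed by 0.08, Abcc8 by -0.04 and Abcc9 by 0.09.

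**Figure D5:**
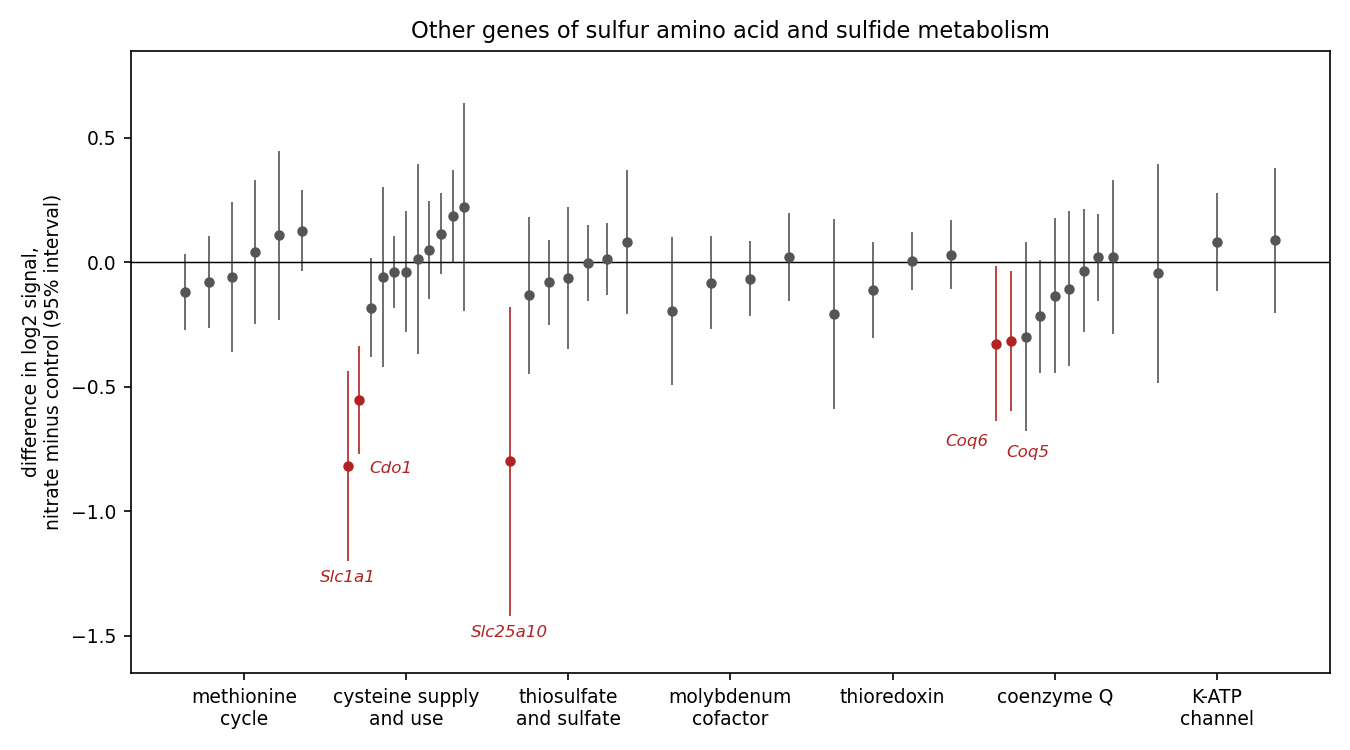
Difference in log2 signal, nitrate minus control, of the 44 detected genes of 7 lists around the enzymes, with 95% intervals from limma (red and named, past both thresholds). All 5 red genes are negative, 2 in the cysteine list, 1 in the thiosulfate and sulfate list and 2 in the coenzyme Q list.

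The arrays were of like quality, with 75th percentiles of the processed signal from 213 to 289, pairwise correlations from 0.982 to 0.995 and no saturated spot. Control 1 stood apart from the rest, with the lowest mean correlation (0.985) and a first principal component of 49.6, where other arrays lay between -23.2 and 16.2. Every control array was in column 3 of its slide and no nitrate array was, so that column and treatment cannot be told apart. Only 3 probes of all detected ones (0.0127%) passed an adjusted P of 0.05 in limma.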

How the data were processed

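RNA from 11 aortas was hybridized by the authors to one-color Agilent mouse arrays, scanned and read with Feature Extraction 10.7.1.1, per the file headers. The deposited intensity values are the processed signals of each spot, after the scanner software's background subtraction. A deposited log2 table of the same arrays, which matched the quantile normalized values computed here once these were centred on each probe's median, was used as an alternative. Its columns had medians of 0 except -0.00868 and -0.0268.

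Here signals under 1 were set to 1, log2 transformed and quantile normalized, outlier spots were left out, and spots of a probe were averaged. A probe was kept if the scanner software marked it as found and as well above background in at least 5 mice of 1 group (23633 probes). Groups were compared with limma 3.58.1 in R 4.3.3, with Benjamini-Hochberg adjustment over these probes, and with exact permutation of the mice. The study's thresholds were used, an unadjusted P under 0.05 and a fold change above 1.2. Fold changes are on the normalized scale. A gene was represented by its brightest detected probe. For arrays, precision is limited by the number of mice.

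Named were all probes of the 7 enzymes, pathway genes past the thresholds plus the first 3 others of each list, the 3 genes nearest each enzyme in pattern, and cell type markers. The enzymes and lists were chosen with earlier results of these data known. Alternatives were other scalings, background corrections, filters and blocks, the adipocyte mean as covariate, and leaving out each mouse. The study's own text counts 6 nitrate treated mice, and a further one was not analysed here. Neither were genes of the lists with no matching name (Tstd3, Adck3). The scripts were tested on simulated data. Replicate numbers did not pair the mice.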

Additional observations from a re-analysis of the deposited data

Results flagged for a closer look

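In groups of 5 or 6 mice, 42 sets of values were examined for a single mouse apart from the others by Dixon's criterion, which chance meets in about 1 of 20 groups, or 2.1 of 42. It was met in 4. For Tst probe 2, nitrate treated mouse 2 (9.07) was above the other 4, which lay between 8.87 and 8.92, with a gap of 0.786 of the range. Control 1 was the mouse apart in the other 3, high for the brown adipocyte marker mean (0.788 of the range) and the heart muscle marker mean (0.637), and low for the smooth muscle marker mean (0.923).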

How the results depend on the processing

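Counted by the brighter probe, 2 of the 7 enzymes passed in the reported fit. One passed with 75th percentile scaling (Cth), the slide as block (Tst) or the replicate number as block (Tst). None (0 of 7) passed in limma with normexp, without the detection filter, with the adipocyte covariate or without both mice high in heart muscle markers, and 3 had an unadjusted P under 0.05 in the reported fit, as 14.5% of all gene names did. The dimmer Tst probe 2 did pass with 75th percentile scaling (-0.40), normexp (-0.37) and no filter (-0.41). Leaving out each mouse gave 0 to 2 enzymes, 3 to 5 of the 44 pathway genes (5 reported, 3 without both heart muscle mice) and 1596 to 2424 of all probes (2128 reported), and all probes gave 1218 with normexp and 3224 without the filter.

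Cth probe 1 was -0.25 with normexp, -0.46 without the filter, -0.48 with the slide block, -0.49 with the replicate block and -0.48 without both heart muscle mice. Tst probe 1 was -0.32, -0.30 and -0.33 with 75th percentile scaling, normexp and no filter, -0.24 without both heart muscle mice and -0.0343 within slide 2, and probe 2 was -0.29 without both heart muscle mice. Sqrdl stayed negative and was -0.0625 with the adipocyte covariate. Within slides, Mpst was 0.087 on slide 2 and Ethe1 0.21 and -0.10 on slides 1 and 3. Cbs was -0.07 on slide 1, 0.15 on slide 2 and 0.26 on slide 3. The adipocyte covariate turned the direction for Cth probes 1 and 2 (0.0456, 0.0012), Cbs (-0.0407), Mpst (0.11), Tst probes 1 and 2 (0.0652, 0.0037), Ethe1 (-0.0193) and Suox (0.0766). Apart from the construction of these fits, the cause was not tested.

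With each mouse left out, differences ran from -0.58 to -0.32 (Cth probe 1), -0.52 to -0.24 (Cth probe 2), 0.05 to 0.20 (Cbs), -0.09 to -0.02 (Mpst), -0.41 to -0.24 and -0.48 to -0.30 (Tst probes 1 and 2), -0.15 to -0.11 (Sqrdl), 0.03 to 0.11 (Ethe1) and -0.24 to -0.12 (Suox). Cth probe 2 passed without control 5. Same-numbered mice had deviations correlated from -0.137 to 0.18, so the numbers were not taken as pairs. Weak signals, as for Cth, limit the precision.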
